A study of Mus musculus with 2 samples.

Results

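The Il17a gamma-delta T cells described here were 69 single cells from mouse retina. They were chosen by their own unique molecular identifier (UMI) counts, each UMI standing for 1 captured RNA molecule. A cell was a member when its Cd3d, Cd3e and Cd3g UMIs summed to at least 2 and its Trdc, Trdv4, Cd163l1 and Il17a UMIs summed to at least 3, with a gene that a table does not list counted as 0. The 69 cells were 69 of 317 cells with at least 2 CD3 UMIs in the library of Igfbpl1-treated mice, and 69 of 4385 cells in all. The remaining 248 CD3 cells of the same library formed the comparison set and are called the other CD3 cells.

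The samples were immune cells positive for CD45 that were sorted by flow cytometry from the retina of B6 mice, 8 to 10 months old, in which glaucoma had been induced with microbeads. One library came from mice treated with Igfbpl1, an insulin-like growth factor binding protein-like factor, and the other from glaucomatous mice given PBS, with 10 mice per group. Each group had 1 library made with a 10x 3' kit, so differences between the libraries have no replicate check and cells are not replicates of a condition. Nothing in the tables tells which mouse a cell came from, and the groups share the glaucoma model, so no cells of an untouched eye are among them.

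Gamma-delta T cells carry a T cell receptor made of a gamma and a delta chain in place of the alpha and beta chains of most T cells. In mice a subset leaves the thymus already committed to make the cytokine interleukin 17A, which acts on epithelial, stromal and endothelial cells and draws in neutrophils. These cells answer interleukin 23 and interleukin 1 without needing a fresh antigen encounter, and settle in tissues such as skin, lung and the meninges rather than recirculating through lymph nodes.

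The Igfbpl1 library held 3330 cells, 9463631 UMIs and a median of 2355.5 UMIs per cell, and the PBS library held 1055 cells, 3795008 UMIs and a median of 3433. No cell barcode was shared between the libraries. CD3 cells were 317 cells or 9.52% (8.54 to 10.6%) of the Igfbpl1 library and 30 cells or 2.84% (1.93 to 4.03%) of the PBS library. Intervals in parentheses are exact 95% intervals throughout, Clopper-Pearson for shares of cells and Poisson for levels, and they cover counting error only. The 69 members were 21.8% (17.3 to 26.7%) of the CD3 cells and 2.07% (1.62 to 2.62%) of all cells of the Igfbpl1 library. The PBS library held 0 members, which with the limit that a count of 0 allows (3 cells) leaves a share of up to 10% of its 30 CD3 cells and up to 0.284% of its cells. The exact upper limits are 11.6% of the CD3 cells and 0.349% of all cells. None of Trdc, Trdv4, Cd163l1 and Il17a is listed in the PBS table. That table lists 94 genes found in fewer than 3 cells and the Igfbpl1 table lists 115, so a gene seen in very few cells is seldom listed. The share of members in CD3 cells was not tested between libraries.

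**Figure D1:**
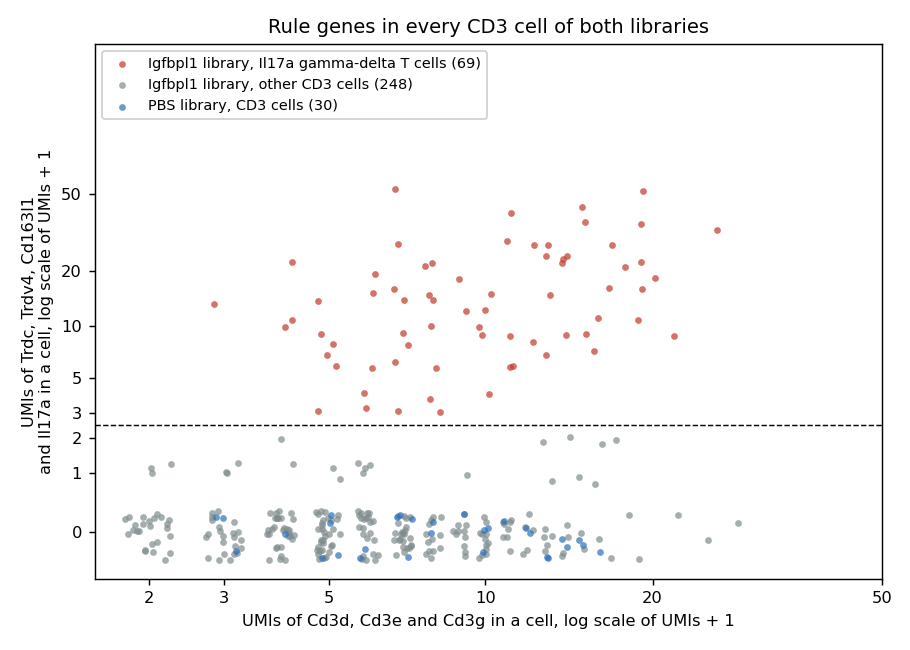
UMIs of the genes that chose the cells, for every CD3 cell of both libraries. The x axis gives the summed UMIs of Cd3d, Cd3e and Cd3g and the y axis the summed UMIs of Trdc, Trdv4, Cd163l1 and Il17a, both on a log scale of UMIs + 1, with points spread slightly so that cells with equal counts can be told apart. The 69 members lie above the dashed line at the limit of 3 UMIs, while 226 of the 248 other CD3 cells and all 30 CD3 cells of the PBS library sit at 0.

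Few cells lay near the limit of the rule. Exactly 3 marker UMIs were found in 4 members and exactly 2 in 5 of the other CD3 cells, while 226 other CD3 cells had none. The 4 members at the limit carried 8 Trdc, 2 Trdv4, 2 Cd163l1 and 0 Il17a UMIs between them and no Trac UMI. The 5 cells just below it carried 7 Trdc, 1 Trdv4, 2 Cd163l1 and 0 Il17a UMIs, together with 14 UMIs of Trac, the constant segment of the alpha chain. Without the CD3 condition 70 cells of the Igfbpl1 library had at least 3 marker UMIs, 1 more than the member count.

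The cells on both sides of the limit were sequenced to a like depth. Members had 198440 UMIs in all, with 1099 to 12691 and a median of 2269 per cell, and the other CD3 cells had 879609 UMIs, with 1055 to 22334 and a median of 2557.5. The median number of genes per cell was 1098 in members and 1093.5 in the other CD3 cells. Mitochondrial UMIs had a median of 1.60% in members and 1.90% in the other CD3 cells. Ribosomal protein UMIs had a median of 22.2% in members and 30.6% in the other CD3 cells. Xist UMIs without any UMI of 4 Y-linked genes were present in 44 members and 166 other CD3 cells, and Y-linked UMIs without Xist in 0 members and 8 other CD3 cells. In the PBS library, 4 of the CD3 cells were of the first kind and 15 of the second. Of the 1754 microglia of the Igfbpl1 library, chosen as given below, 652 were of the first kind and 440 of the second. Xist and Y-linked UMIs were found in the same cell in 0 members and 10 other CD3 cells. The same held for 1 CD3 cell of the PBS library and 21 microglia. The CD3 cells of the 2 libraries thus differ in this make-up, and its bearing on their shares was not tested. How many mice gave the members cannot be told.

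The rule's own markers were spread over most members, which is a description of the choice and not a finding. Trdc, the constant segment of the delta chain at chr14:54142851-54148868 on the plus strand of mm10, had 352 UMIs in 63 of the 69 cells (91.3%). Trdv4, a delta chain variable segment at chr14:54074905-54075515, also on the plus strand, had 228 UMIs in 54 cells (78.3%). Cd163l1, a scavenger receptor of gamma-delta T cells at chr7:140218267-140231145 on the plus strand, had 159 UMIs in 50 cells (72.5%). Il17a, the cytokine gene at chr1:20730905-20734496 on the plus strand, had 365 UMIs in 45 cells (65.2%). All 4 markers were found together in 26 members, 3 of them in 28 members, 2 in 9 members and 1 in 6 members. Members held 85.6% of the library's Trdc UMIs, 91.2% of its Trdv4 UMIs, 96.4% of its Cd163l1 UMIs and 99.2% of its Il17a UMIs.

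The name was checked against cells that should lack these genes. Among 1754 cells with at least 3 UMIs over a set of microglial genes that includes P2ry12 and Tmem119, and no CD3 UMI, at a median of 2156.5 UMIs per cell, 3 had a Trdc UMI, 2 a Trdv4 UMI, 0 a Cd163l1 UMI and 1 an Il17a UMI. Among 63 cells picked in the same way by the B cell genes Cd79a, Cd79b and Ms4a1, at a median of 1665 UMIs, none had a UMI of any of the 4, which allows a share of up to 4.76%. Natural killer (NK) cells, picked as 154 cells with at least 2 UMIs of Ncr1, Klrb1c and Klre1 and fewer than 2 CD3 UMIs, differed from both. Of these cells 15.6% had a Trdc UMI and 7.79% a Trdv4 UMI, at a median of 2170 UMIs, with 0 UMIs of Cd163l1 and Il17a. A UMI of at least 1 gamma-delta receptor gene was present in 67 of the 69 members, which the choice by Trdc and Trdv4 largely sets. Of receptor genes outside the rule, Tcrg-C1 was present in 53 members and Trac in 6 members. A UMI of Trdc, Tcrg-C1, Tcrg-C2 or Tcrg-C4 was present in 66 members and in 53 of the other CD3 cells (21.4%). The comparison set is therefore not free of gamma-delta receptor transcripts. Il17a itself was absent from 24 members, and for these the choice rests on Trdc (22 cells), Trdv4 (18 cells) and Cd163l1 (17 cells).

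Genes of the gamma-delta receptor that the rule did not use were higher in members. Their variable segments carry the sequence a receptor shows to its ligand, so the germline segments of the delta chain named in the rule and of its known gamma partner are given. In mice the Trdv4 segment pairs with Tcrg-V6 in the tissue-settling lineage that makes interleukin 17A. The sequences come from mm10 with GENCODE M21 exons: exon 2 of Trdv4, chr14:54075217-54075515 on the plus strand (299 bases), and the last 300 of the 318 bases of exon 2 of Tcrg-V6, chr13:19190630-19190929 on the plus strand. Capitals run from the last TGT, the codon of the cysteine at which the joined region of a receptor chain begins, to the end of the segment.
Trdv4: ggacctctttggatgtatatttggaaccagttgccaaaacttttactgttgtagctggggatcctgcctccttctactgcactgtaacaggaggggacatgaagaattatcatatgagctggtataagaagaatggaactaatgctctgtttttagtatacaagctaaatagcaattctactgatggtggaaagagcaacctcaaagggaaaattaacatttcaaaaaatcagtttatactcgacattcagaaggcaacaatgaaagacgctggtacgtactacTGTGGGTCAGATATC
Tcrg-V6: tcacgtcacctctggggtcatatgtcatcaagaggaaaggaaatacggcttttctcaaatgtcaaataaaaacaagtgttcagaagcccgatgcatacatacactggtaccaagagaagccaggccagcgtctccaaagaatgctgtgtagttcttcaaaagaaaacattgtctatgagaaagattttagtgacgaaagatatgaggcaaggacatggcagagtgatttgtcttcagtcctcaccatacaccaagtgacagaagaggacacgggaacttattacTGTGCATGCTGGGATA

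Tcrg-V6 had 23 UMIs in 20 members and 0 UMIs in the other CD3 cells. With 3 counts taken for the set at 0, it was 34.0-fold higher in members, and the exact interval begins at 25.5-fold. Levels below are in CPM, computed from the UMIs summed over a cell set, and log2 ratios are of CPM with 10 CPM added to both sets. Tcrg-C1, a gamma chain constant segment, had 140 UMIs in 53 members and 26 UMIs in 18 of the other CD3 cells. That is 705.5 CPM in members and 29.6 CPM in the other CD3 cells, a 23.9-fold higher level (15.6 to 37.8) and a log2 ratio of 4.18. The segments Tcrg-C4, Tcrg-C2 and Trgv2 had log2 ratios of 3.12, 2.11 and 2.11. The gamma chain genes include near-identical copies, so reads may be shared among them and the values of single segments are uncertain. Of the gamma-delta receptor list, all 5 genes measured outside the rule were at least 2-fold higher in members, beside 7.24% of all measured genes. For Tcrg-V6, Tcrg-C1, Tcrg-C2 and Trgv2 this was set by the level minimum given below. At 29.6 CPM or less in the other CD3 cells, they could be measured only by being high in members. Tcrg-V1, Tcrg-V4 and Trdv2-2 were not measured.

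A gene is called measured when its mean over both sets was at least 50 CPM and both sets together held at least 20 UMIs, and called higher or lower when it passed 2-fold on the log2 scale above. A gene close to 0 in 1 set could be measured only by being high in the other, so its call was set by this filter. There were 2996 measured genes outside the rule. Of these 217 (7.24%) were higher in members and 161 (5.37%) were lower, and the median log2 ratio was 0.17. When the sets were scaled by the median ratio of genes in place of total UMIs, which removes this shift, the counts were 155 higher and 214 lower. No test was run on any gene, because both sets come from 1 library.

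The receptor segments were also counted cell by cell. Among the 54 members with Trdv4 UMIs, 17 also had Tcrg-V6, 44 had Tcrg-C1 and 36 had Il17a. Among the 15 members without Trdv4 UMIs, 3 had Tcrg-V6, 9 had Tcrg-C1 and 9 had Il17a, and 13 had Trdc. Other variable segments were present too. Trgv2 had 32 UMIs in 20 members and 26 UMIs in 20 of the other CD3 cells, subject to the sharing of reads given above. A UMI of Tcrg-V1, Tcrg-V4, Trgv2 or Trdv2-2 was found in 21 of the 54 members with Trdv4 and in 3 of the 15 without it. Tcrg-V1 had 6 UMIs in members and 8 in the other CD3 cells, Tcrg-V4 had 2 in members and 3 in the other CD3 cells, and Trdv2-2 had 0 in members and 2 in the other CD3 cells. A 3' library reads variable segments poorly, so a cell without such a UMI may still use the segment.

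Among alpha-beta receptor and coreceptor genes, Trac and Cd8b1 were low in members, while the constant segments of the beta chain had ratios near 1. Trac had 9 UMIs in 6 members and 285 UMIs in 138 of the other CD3 cells, a 7.14-fold lower level in members (3.71 to 15.8). Cd8b1, a chain of the CD8 coreceptor, had 0 UMIs in members and 122 UMIs in the other CD3 cells, and was at least 9.17-fold lower. Cd8a or Cd8b1 was detected in 0 members and in 72 of the other CD3 cells (29.0%), and Cd4 in 1 member and 20 of the other CD3 cells. Trbc1 had 312 CPM in members and 331 CPM in the other CD3 cells, with a log2 ratio of -0.08, and Trbc2 had 751 CPM in members and 783 CPM in the other CD3 cells, with a log2 ratio of -0.06. So of the 4 measured genes of the list, which holds receptor and coreceptor genes, Trac and the coreceptor gene Cd8b1 were lower. The list's median log2 ratio was -1.34. Over all measured genes 5.37% were lower.

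**Figure D2:**
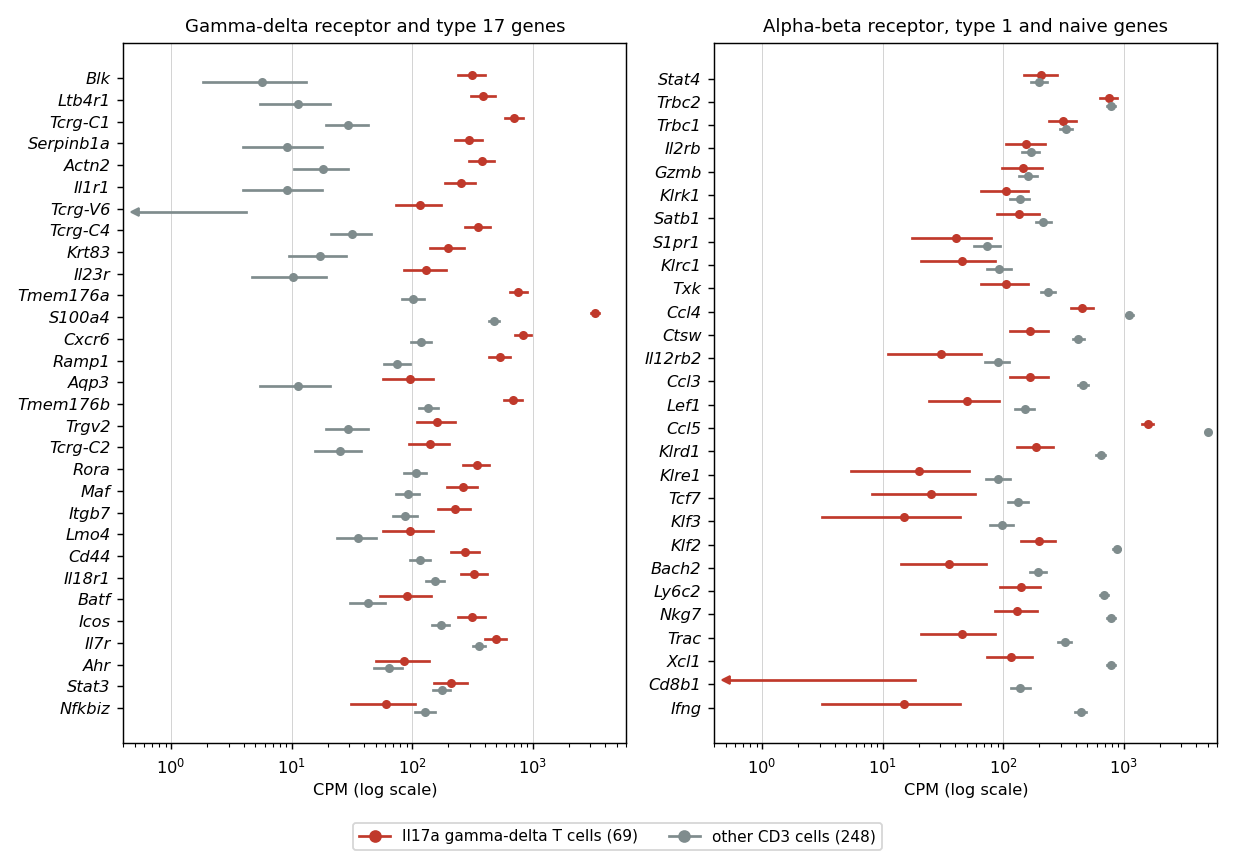
Levels of named genes in the 69 Il17a gamma-delta T cells and the 248 other CD3 cells of the Igfbpl1 library, in CPM on a log scale. Points are the CPM of the summed UMIs, bars their exact 95% Poisson intervals, and an arrow marks a set with 0 UMIs. The intervals of the 2 sets are far apart for Blk, Ltb4r1 and Tcrg-C1 on the left panel and for Ifng, Cd8b1 and Xcl1 on the right, and overlap for Ahr, Stat3, Trbc1, Trbc2 and Gzmb.

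The receptor complex around these chains differed gene by gene. Of 11 measured genes of CD3 and proximal receptor signalling outside the rule, Blk, Lat and Cd247 were higher in members, and Cd2, Cd28 and Lck were lower. Over all measured genes 7.24% were higher and 5.37% were lower. Blk, a Src family kinase of B cells that mouse gamma-delta T cells making interleukin 17 also use, had 312 CPM in members and 5.68 CPM in the other CD3 cells. That is 62 UMIs in 37 members and 5 UMIs in 3 of the other CD3 cells, a 55.0-fold higher level (22.3 to 175). Lat, the adaptor that the receptor's kinase cascade phosphorylates, had 615 CPM in members and 168 CPM in the other CD3 cells. Lck, the Src family kinase that CD4 and CD8 bring to the receptor, had 75.6 CPM in members and 186 CPM in the other CD3 cells, a log2 ratio of -1.20. The costimulatory receptor gene Cd28 had a log2 ratio of -1.31, and Cd2, an adhesion receptor, had 55.4 CPM in members and 223 CPM in the other CD3 cells. The genes of CD3 that the rule used were also not equal, with log2 ratios of 1.53 for Cd3g, 0.82 for Cd3e and 0.31 for Cd3d.

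Genes of the type 17 programme were high in members as a group. Of 26 measured list genes outside the rule, 20 were higher, 0 were lower and 6 lay between, and the list's median log2 ratio was 2.28, beside 0.17 for all measured genes. The list was put together with earlier results of these data known and is therefore not independent evidence of its direction. Several of the 20, such as Blk, Il1r1, Il23r, Ltb4r1 and Serpinb1a, were so low in the other CD3 cells that they could be measured only through members. Summed over the 32 listed genes outside the rule, measured or not, the programme made up 11379 CPM in members and 2664 CPM in the other CD3 cells. A member had UMIs of 3 to 22 of these 32 genes, with a median of 13, and another CD3 cell had 0 to 21, with a median of 4. After each cell was thinned to 1000 UMIs the numbers were 1 to 15 with a median of 8 in members and 0 to 9 with a median of 2 in the other CD3 cells. The ranges overlap, and 95 of the other CD3 cells (38.3%) had 5 or more of the genes.

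Some regulators of the programme were among the higher genes. Rora, a nuclear receptor that promotes the type 17 programme, had 343 CPM in members and 107 CPM in the other CD3 cells, and Maf, a transcription factor that gamma-delta T cells of this type need, had 262 CPM in members and 92.1 CPM in the other CD3 cells. Batf, Ahr and Stat3, which also take part in interleukin 17 production, did not pass 2-fold, with log2 ratios of 0.92, 0.38 and 0.25. Nfkbiz, a nuclear cofactor of NF-kB, had the lowest ratio of the list at -0.97, with 60.5 CPM in members and 128 CPM in the other CD3 cells.

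Receptors for the cytokines that start interleukin 17 release were high in members. Il1r1, the signalling receptor of interleukin 1, had 50 UMIs in 28 members and 8 UMIs in 4 of the other CD3 cells, a 27.7-fold higher level (13.0 to 67.7). Il23r, the specific chain of the interleukin 23 receptor, had 26 UMIs in 20 members and 9 UMIs in 6 of the other CD3 cells, a 12.8-fold higher level (5.81 to 31.1). Il18r1, a chain of the interleukin 18 receptor, lay just past the limit with 328 CPM in members and 156 CPM in the other CD3 cells. Il7r, the receptor of the survival cytokine interleukin 7, had 494 CPM in members and 359 CPM in the other CD3 cells, a log2 ratio of 0.45. Icos, a costimulatory receptor, had 312 CPM in members and 173 CPM in the other CD3 cells, a log2 ratio of 0.82.

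Genes for migration and tissue retention on the same list were also higher. Ltb4r1, the receptor of the lipid chemoattractant leukotriene B4, had 77 UMIs in 38 members and 10 UMIs in 8 of the other CD3 cells, a 34.1-fold higher level (17.6 to 74.0). Cxcr6, the receptor of the membrane-bound chemokine CXCL16, had 166 UMIs in 62 members and 105 UMIs in 63 of the other CD3 cells, a 7.01-fold higher level (5.46 to 9.04). Ramp1, a subunit of the receptor for the neuropeptide CGRP, had 534 CPM in members and 75.0 CPM in the other CD3 cells. Itgb7, an integrin beta chain, had 227 CPM in members and 87.5 CPM in the other CD3 cells, and Cd44, a hyaluronan receptor, had 277 CPM in members and 117 CPM in the other CD3 cells. S100a4, a calcium-binding protein of motile cells, had 3301 CPM in members and 482 CPM in the other CD3 cells and was found in 67 members and 102 of the other CD3 cells.

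The remaining high genes of the list have less settled roles in T cells. Serpinb1a, a protease inhibitor, had 59 UMIs in 31 members and 8 UMIs in 6 of the other CD3 cells. Actn2, an alpha-actinin best known from muscle, had 75 UMIs in 43 members and 16 UMIs in 15 of the other CD3 cells. Krt83, a hair keratin gene, had 197 CPM in members and 17.1 CPM in the other CD3 cells. Aqp3, a water and glycerol channel, had 95.7 CPM in members and 11.4 CPM in the other CD3 cells, and Lmo4, a LIM domain transcriptional cofactor, had 95.7 CPM in members and 35.2 CPM in the other CD3 cells. The neighbouring membrane protein genes Tmem176a and Tmem176b had log2 ratios of 2.78 and 2.25. The exons of these neighbours overlap on opposite strands, and no source used here says whether reads were counted by strand, so the reads of the pair cannot be told apart. Rora, Maf and Trdc likewise overlap exons of a gene on the opposite strand.

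Of the list genes, 6 were too low to be measured. Il17f, the close relative of Il17a, had 17 UMIs, all of them in 1 member. Il22 had 1 UMI in members and 79 UMIs in the other CD3 cells, of which 78 were in 1 cell. Sox13, a transcription factor of gamma-delta T cell development, had 12 UMIs in 11 members and 0 in the other CD3 cells. Zbtb16, a regulator of innate-like T cells, had 15 UMIs in members and 13 in the other CD3 cells, Kcnk1, a potassium channel gene, had 9 in members and 1 in the other CD3 cells, and Ccr6, a chemokine receptor gene, had 2 in members and 8 in the other CD3 cells. The list gene 5830411N06Rik is not listed in either table.

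Il17a was looked at in cells chosen without it. When the rule asked for 3 UMIs of Trdc, Trdv4 and Cd163l1 alone it picked 67 cells. Of these 43 had an Il17a UMI, or 64.2% (51.5 to 75.5%), and their summed level was 1868 CPM (1676 to 2077). Of the 250 CD3 cells not picked, 4 had an Il17a UMI, or 1.60% (0.438 to 4.05%), at a summed level of 26.8 CPM (17.2 to 39.9). Among the 69 members 24 cells had no Il17a UMI, 22 had 1 to 4, 9 had 5 to 9 and 14 had 10 or more, with a highest count of 34. The 5 members with most Il17a held 144 of the 365 UMIs, or 39.5%.

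**Figure D3:**
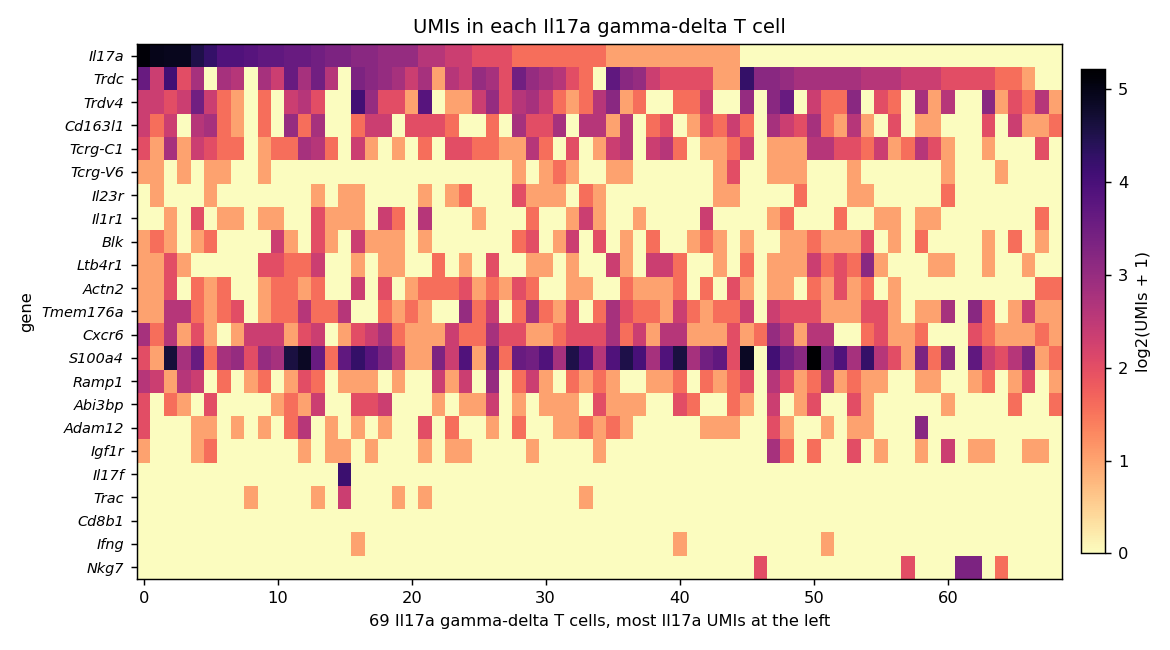
UMIs of 23 genes in each of the 69 Il17a gamma-delta T cells, as log2(UMIs + 1) on a colour scale. Columns are cells ordered by their Il17a UMIs and rows are genes. Il17a fades out after 45 cells, while Trdc, Trdv4, Cxcr6 and S100a4 go on to the right, Cd8b1 stays at 0, and the Il17f UMIs lie in 1 cell.

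Few type 17 genes differed by 2-fold between members with and without Il17a. The 43 cells with Il17a, at a median of 2018 UMIs, were set against the 24 without it, at a median of 2401, both chosen by the receptor genes and Cd163l1. Of 21 measured type 17 genes, 2 were at least 2-fold higher in the cells with Il17a and 0 were lower, beside 5.97% higher and 5.03% lower among all 1490 measured genes. The 2 were Actn2, with 512 CPM in cells with Il17a and 242 CPM in cells without it, and Il1r1, with 335 CPM in cells with Il17a and 157 CPM in cells without it. The median log2 ratio, cells with Il17a over cells without it, was 0.35 for the 21 type 17 genes and 0.07 for all 1490. Of 16 measured immediate early genes, which switch on within minutes of stimulation, 0 were higher and 2 were lower. Dusp2, a phosphatase gene, had 35.3 CPM in cells with Il17a and 228 CPM in cells without it, and Atf3, a stress transcription factor gene, had 185 CPM in cells with Il17a and 384 CPM in cells without it. The UMIs of these immediate early genes numbered 4 and 16 for Dusp2 and 21 and 27 for Atf3 in cells with and without Il17a. No limit on UMIs of myeloid genes was set in this comparison, and Atf3 had 2866 CPM in microglia.

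The promoters of the cytokine genes and of Il23r are shown with matches to a nuclear receptor half-site that the protein made from Rora, one of the higher genes, is known to bind. Sequences run from 250 bases before to 50 bases after the start site and are from RefSeq, GRCm38.p6. They are Il17a at chr1:20730655-20730954 on the plus strand, Il17f at chr1:20784221-20784520 on the minus strand and Il23r at chr6:67491806-67492105 on the minus strand. Capitals mark AGGTCA, the letters of that half-site, or its reverse complement TGACCT.
Il17a: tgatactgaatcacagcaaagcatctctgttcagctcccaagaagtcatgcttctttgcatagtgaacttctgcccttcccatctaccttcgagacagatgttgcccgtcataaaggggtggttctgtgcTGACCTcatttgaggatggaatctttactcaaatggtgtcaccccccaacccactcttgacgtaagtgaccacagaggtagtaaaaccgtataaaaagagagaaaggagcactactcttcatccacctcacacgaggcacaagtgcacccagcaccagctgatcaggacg
Il17f: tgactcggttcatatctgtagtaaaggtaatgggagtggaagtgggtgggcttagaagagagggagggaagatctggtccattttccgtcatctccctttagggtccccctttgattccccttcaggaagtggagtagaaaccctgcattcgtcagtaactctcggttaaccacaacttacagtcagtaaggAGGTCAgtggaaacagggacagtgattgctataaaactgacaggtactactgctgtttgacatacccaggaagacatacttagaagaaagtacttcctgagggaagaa
Il23r: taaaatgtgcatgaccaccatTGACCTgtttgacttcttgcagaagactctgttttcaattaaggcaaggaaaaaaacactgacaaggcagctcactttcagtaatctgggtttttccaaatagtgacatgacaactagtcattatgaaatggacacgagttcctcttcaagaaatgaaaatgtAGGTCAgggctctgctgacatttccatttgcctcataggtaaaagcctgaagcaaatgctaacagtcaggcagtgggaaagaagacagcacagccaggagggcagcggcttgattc

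Il17a had 1 match beginning 120 bases before the start site, Il17f had 1 match at 58 bases and Il23r had matches at 229 and 66 bases. The 6-letter word is common, and 4900 of 27025 genes with a promoter entry (18.1%) hold it on either strand. Among genes higher in members 31 of 159 (19.5%) held it, among genes lower in members 21 of 126 (16.7%), and among measured genes 379 of 2357 (16.1%). Of the 15 higher type 17 genes with a promoter entry, Actn2, Il23r and S100a4 held it (20%). A match is a stretch of letters in this window and says nothing of binding.

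**Figure D4:**
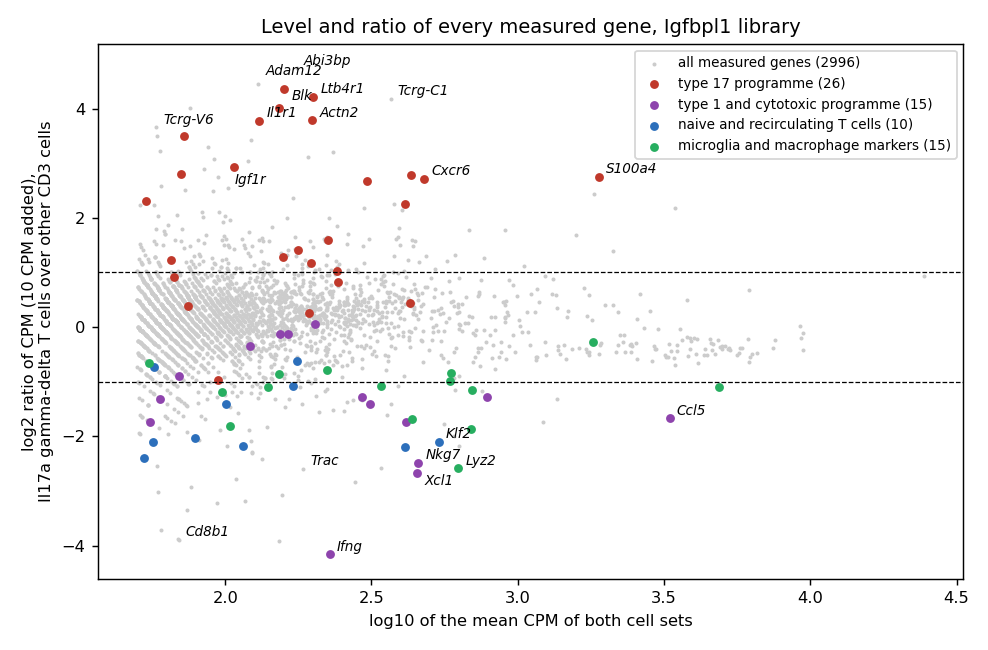
Log2 ratio of members over other CD3 cells, with 10 CPM added, against the log10 of the mean CPM of both sets, for the 2996 measured genes. Coloured points are genes of 4 lists and dashed lines mark 2-fold. Type 17 genes lie mostly above the upper line, with Blk at 4.36 and S100a4 at 2.75, and type 1 genes near or below 0, with Ifng at -4.16.

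Several of the highest ratios belonged to genes outside the lists. Abi3bp, an extracellular matrix protein gene, had 69 UMIs in 35 members and 3 UMIs in 3 of the other CD3 cells, a 102-fold higher level (33.5 to 506) and the highest log2 ratio of the genes named, at 4.74, apart from the genes of the rule. Adam12, a membrane metalloprotease, had 51 UMIs in 29 members and 2 UMIs in 2 of the other CD3 cells, a 113-fold higher level (29.7 to 959). Ablim3, an actin-binding LIM protein, had 30 UMIs in 18 members and 0 UMIs in the other CD3 cells. With 3 counts taken for the set at 0 it was 44.3-fold higher, and the exact interval begins at 33.9-fold. Clnk, an adaptor of immune receptor signalling, had 85 UMIs in 38 members and 33 UMIs in 23 of the other CD3 cells. Clnk was also found in the NK cells, at 181 CPM. The relaxin family gene Rln3 had 23 UMIs in members and 1 UMI in the other CD3 cells, Dkk3, a secreted protein of the Dickkopf family, had 23 in members and 3 in the other CD3 cells, and Ly6g5b, a surface protein gene, had 33 in members and 7 in the other CD3 cells. Abi3bp, Adam12, Ablim3, Rln3, Dkk3 and Ly6g5b were at 7.96 CPM or less in the other CD3 cells. They could be measured only through members, so the level minimum set their calls, and they were named for their large ratios.

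Igf1r, which encodes the receptor for the growth factor IGF1, was singled out after its value was seen, because the treatment is named for a protein related to its ligand's binding proteins. It had 36 UMIs in 23 members and 20 UMIs in 18 of the other CD3 cells, which is 181 CPM in members and 22.7 CPM in the other CD3 cells, a 7.98-fold higher level (4.50 to 14.5). No member is present in the PBS library, so this says nothing of the treatment. Among 18 measured cytokine and chemokine receptors 7 were higher in members and 2 were lower, beside 7.24% and 5.37% of all measured genes. The higher ones were Ltb4r1, Il1r1, Il23r, Cxcr6, Igf1r, Ccr2 and Il18r1, and the lower ones included Tgfbr1, a receptor of transforming growth factor beta. Ltb4r1, Il1r1, Il23r and Igf1r were at 22.7 CPM or less in the other CD3 cells. They could be measured only by being high in members, so the level minimum set their calls. Ccr2, which leads cells to inflamed tissue, had 297 CPM in members and 93.2 CPM in the other CD3 cells.

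The type 1 and cytotoxic programme was low in members. Of 15 measured genes 0 were higher and 10 were lower, beside 7.24% and 5.37% of all measured genes. The list's median log2 ratio was -1.31. Ifng, the type 1 cytokine gene, had 3 UMIs in 3 members and 387 UMIs in 97 of the other CD3 cells, a 29.1-fold lower level in members (9.88 to 142). Xcl1, a chemokine gene of NK and CD8 T cells, had 116 CPM in members and 789 CPM in the other CD3 cells, and Nkg7, a cytotoxic granule gene, had 131 CPM in members and 781 CPM in the other CD3 cells. Ccl5, a chemokine gene of effector lymphocytes, had 313 UMIs in 16 members and 4427 UMIs in 187 of the other CD3 cells, and 114 of the 313 were in 1 member. Klrd1, Klre1, Ccl3, Ccl4, Il12rb2 and Ctsw were the other lower genes of the list. Gzmb, which encodes granzyme B, did not differ by 2-fold, with 146 CPM in 6 members and 161 CPM in 37 of the other CD3 cells. Ncr1, Klrb1c or Klre1 was detected in 3 members and 61 of the other CD3 cells (24.6%).

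Genes of naive and recirculating T cells were low as well. Of 10 measured genes 0 were higher and 8 were lower, beside 7.24% and 5.37% of all measured genes. The list's median log2 ratio was -2.06. Klf2, the transcription factor that keeps T cells in circulation, had 197 CPM in 19 members and 877 CPM in 185 of the other CD3 cells, a 4.46-fold lower level in members (3.23 to 6.32). Tcf7 and Lef1, transcription factors of naive T cells, had log2 ratios of -2.02 and -1.42, and Bach2, a repressor of effector genes, had -2.17. Ly6c2, a surface protein of memory CD8 T cells, had 141 CPM in members and 684 CPM in the other CD3 cells. Klf3 and Txk were also lower, and S1pr1 and Satb1, at -0.74 and -0.63, lay between.

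Lists on cell state held few genes past 2-fold. Of 16 measured genes of tissue residence and activation Cxcr6, Cd44 and Rgs1 were higher and 0 were lower, beside 7.24% higher and 5.37% lower among all measured genes. Rgs1, which dampens chemokine receptor signals, had 1436 CPM in members and 661 CPM in the other CD3 cells, and 1143 CPM in NK cells. Its log2 ratio of 1.11 was 0.95 against the other CD3 cells without CD8 UMIs, 0.97 in cells with Xist and no Y-linked UMIs, and 0.94 with median-ratio scaling. Of 20 immediate early genes 0 were higher and Atf3, Ier3 and Ier5 were lower in all cells. In cells with fewer than 10 UMIs summed over 10 myeloid genes (such as Lyz2, Csf1r and Cd74) their log2 ratios were -0.08, -0.27 and -0.68, so these calls ended there, and Atf3 had 2866 CPM in microglia. Of 12 heat shock genes 0 were past 2-fold either way. Hspa1a, an inducible chaperone gene, had 2051 CPM in members and 3079 CPM in the other CD3 cells. Pkm and Eno1, which encode enzymes of glycolysis, were the higher genes of 11, with 358 CPM in members and 168 CPM in the other CD3 cells for Pkm and 277 CPM in members and 130 CPM in the other CD3 cells for Eno1. Both were under 2-fold against the other CD3 cells without CD8 UMIs, at 0.81 for Pkm and 0.91 for Eno1, and with median-ratio scaling. Of 17 genes of oxidative phosphorylation Cox5a alone was past 2-fold, at 1.21, of 8 cell cycle genes Tubb5, at -1.26, and of 4 lipid genes 0.

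Of 3 measured checkpoint genes 1 was higher and 1 lower, and of 5 type 2 and regulatory genes 2 were higher and 1 lower. For every list of this paragraph, the shares over all measured genes to set beside it are 7.24% higher and 5.37% lower. Ctla4, an inhibitory receptor, had 81 UMIs in 34 members and 104 UMIs in 44 of the other CD3 cells, a log2 ratio of 1.71. Il2ra, the high-affinity interleukin 2 receptor chain, had 191 CPM in members and 50.02 CPM in the other CD3 cells. Tnfrsf18, a costimulatory receptor of regulatory T cells, had 55.4 CPM in members and 144 CPM in the other CD3 cells, and Entpd1, an enzyme that breaks down extracellular ATP, had 20.2 CPM in members and 84.1 CPM in the other CD3 cells. Of 10 interferon response genes Ly6a was higher, with 1063 CPM in members and 304 CPM in the other CD3 cells, and Ifi27l2a was lower, with 776 CPM in members and 1937 CPM in the other CD3 cells. Of 10 survival genes Bcl2a1d was higher, at 1.18, and Bcl2, an inhibitor of cell death, was lower, at -1.32. Of 11 genes of MHC class I presentation 0 were past 2-fold. Of 4 measured ligand genes Fgl2, a secreted fibrinogen-like protein, with 292 CPM in members and 48.9 CPM in the other CD3 cells, and Furin, a protease that matures secreted proteins, with 131 CPM in members and 53.4 CPM in the other CD3 cells, were higher.

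**Figure D5:**
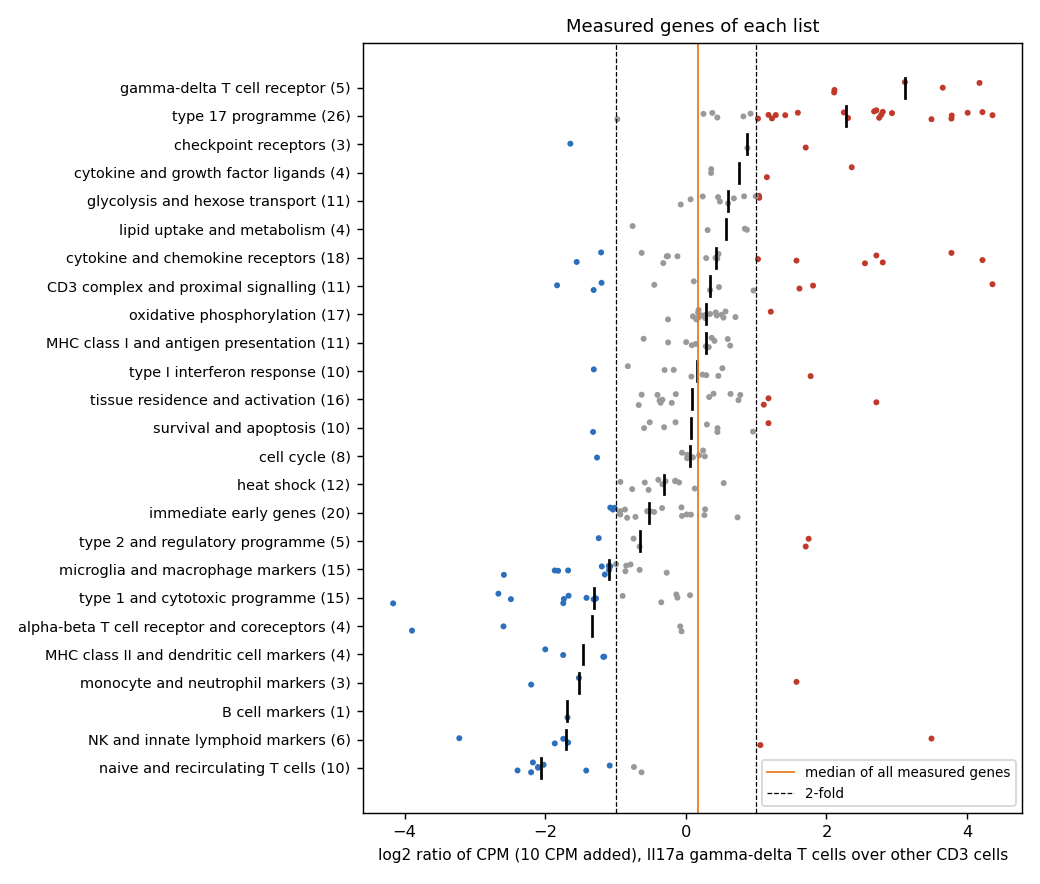
Log2 ratios of the measured genes of each list, members over other CD3 cells with 10 CPM added, with the number of measured genes outside the rule in parentheses. Each point is a gene, red at least 2-fold higher and blue at least 2-fold lower, the black bar is the list's median and the orange line the median of all 2996 measured genes (0.17). The gamma-delta receptor and type 17 lists have medians of 3.12 and 2.28, and the naive T cell list one of -2.06.

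Markers of other cell types also differed between the sets. Of 15 measured microglia and macrophage markers 9 were lower in members, with a median log2 ratio of -1.09, and all 4 measured genes of MHC class II and dendritic cells were lower. Over all measured genes 7.24% were higher and 5.37% were lower. The summed level of the 18 microglia and macrophage markers was 7378 CPM in members, at 0 to 549 UMIs per cell, and 15567 CPM in the other CD3 cells, at 0 to 1002 UMIs per cell. Of the defining genes of microglia, P2ry12 had 0 UMIs in members and 26 in the other CD3 cells, and Tmem119 had 2 in members and 37 in the other CD3 cells. The summed level of the 12 genes of MHC class II and dendritic cells was 1713 CPM in members and 4852 CPM in the other CD3 cells. Over 10 myeloid genes, 7 members (10.1%) and 48 of the other CD3 cells (19.4%) had 10 or more UMIs, while the median was 3 in both sets. Those 7 members held 729 of the members' 892 such UMIs, and the 48 other CD3 cells 8286 of 8783. With both sets limited to cells with fewer than 10 such UMIs, 62 members and 200 of the other CD3 cells, the signs of the following genes turned. Lyz2 had a log2 ratio of 0.66 in place of -2.59, Cd74 had 0.57 in place of -1.74, Apoe had 0.28 in place of -1.09 and H2-Ab1 had 0.10, where all cells gave 237 CPM in members and 977 CPM in the other CD3 cells. In those cells 2 of 8 measured microglia and macrophage markers were lower and 0 of 3 genes of MHC class II. Lyz2, Cd74, H2-Ab1 and the other class II genes measured are among the 10 genes behind this limit, which capped their UMIs by design. Their loss of difference there is therefore no finding. Lyz2 was down to 41.3 CPM in members and 22.3 CPM in the other CD3 cells. Apoe is not among the 10 genes. Of 6 measured NK and innate lymphoid genes 2 were higher, Id2 among them, and Klra7, Fcer1g, Klre1 and Tyrobp were lower, of 3 monocyte and neutrophil genes Ccr2 was higher and Ly6c2 and Plac8 were lower, the 1 measured B cell gene, Ighm, was lower, and no retinal neuron or glia marker was measured.

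Some of the named genes were followed in the cells with few myeloid UMIs. The log2 ratio there was 4.71 for Blk, 4.46 for Ltb4r1, -4.01 for Ifng and -2.87 for Ccl5, beside 4.36, 4.22, -4.16 and -1.67 in all cells. Genes with ratios near 1 could change side, with Stat3 at -0.09 beside 0.25 in all cells and Trbc1 at 0.01 beside -0.08. The kind of T cell in the comparison set was varied as well. Against the 72 other CD3 cells with a CD8 UMI the log2 ratio was 3.95 for Blk, 3.21 for S100a4 and -3.81 for Ifng, and against the 176 without one it was 4.60 for Blk, 2.58 for S100a4 and -4.30 for Ifng. Against the 138 with a Trac UMI it was 4.77 for Blk, 2.67 for S100a4 and -4.04 for Ifng.

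The rest of the library showed where the members' high genes were also found. Blk had 312 CPM in members, against 118 CPM in B cells, 1.10 CPM in microglia and 0 UMIs in NK cells. Tmem176a had 761 CPM in members and 431 CPM in microglia, and Tmem176b had 685 CPM in members and 547 CPM in microglia. S100a4 had 3301 CPM in members, 555 CPM in NK cells and 751 CPM in the remaining cells without CD3 UMIs. Ifng, low in members at 15.1 CPM, had 1111 CPM in NK cells. In the 30 CD3 cells of the PBS library, which held 114367 UMIs, Blk, Il1r1, Ltb4r1, Serpinb1a and Tmem176a had 0 UMIs, Tmem176b had 2, Actn2 3, Ramp1 6, Cxcr6 7 and S100a4 13. Il23r, Tcrg-C1 and Tcrg-V6 are not listed in the PBS table.

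Ligands of the members' receptors were found in other cells of the Igfbpl1 library. Il1b, which encodes a ligand of the interleukin 1 receptor, had 126 CPM in members, 384 CPM in the other CD3 cells, 828 CPM in microglia and 1687 CPM in the remaining cells without CD3 UMIs. Il1a, the other such ligand, had 40.3 CPM in members and 444 CPM in microglia. The chains of interleukin 23 were scarce, with Il23a at 0 UMIs in members and 1.10 CPM in microglia, and Il12b at 0 UMIs in members, 6.61 CPM in microglia and 33.6 CPM in the remaining cells. Cxcl16, the ligand of the receptor made from Cxcr6, had 55.4 CPM in members, 167 CPM in microglia and 214 CPM in the remaining cells. Of the receptor of interleukin 17A, Il17ra had 20.2 CPM in members and 35.04 CPM in microglia, and Il17rc had 0 UMIs in both. These levels show where RNA was counted and not that a signal passed between cells.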

How the data were processed

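Retinal CD45+ cells of 2 libraries, 1 per group, were analysed. The authors deposited raw UMI counts for each gene in each cell, without normalisation. Cell Ranger 3.1 and mm10 are named in the submitters' processing notes, and the filter on cells and the use of strand in counting are not given in the sources used here. No cell was removed. The members and the gene lists were chosen with earlier results of these data known. Counts were summed over the cells of a set in Python 3.11.15 (numpy 2.4.6, pandas 2.3.3), and exact intervals came from scipy 1.17.1. Fold intervals are conditional binomial intervals of the UMIs. No test was run between cells or libraries, since each group has 1 library. Doublets were called with Scrublet in scanpy 1.11.5 and kept: 62 of 3330 cells (1.86%), among them 2 members and 12 other CD3 cells.

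The 26 gene lists hold markers of T cell classes, programmes and other cell types. Genes were named by rule: measured genes of the receptor and type 17 lists, the 15 largest ratios in each direction among genes found in 20% of the cells of the higher set (without ribosomal, mitochondrial or clone-named genes), and up to 2 genes by level and 3 by ratio from each other list. Other genes named complete a list's count or, as said, were chosen after their values were seen. The summing and calling steps were tested on simulated data. Alternatives were the limits of the rule, depth, scaling, pseudocount, level minimum, comparison set, doublets, and, chosen after seeing the data, limits on myeloid UMIs, Trac UMIs and Xist. Some named genes are counted with their lists and not reported here by name.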

Additional observations from a re-analysis of the deposited data

How the results depend on the processing

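No paired analysis was possible because each group has 1 library and no result comes from a test. The share of members among CD3 cells ranged from 17.6% to 26.0% over 10 alternatives, and the share of cells with Il17a chosen without Il17a from 56.7% to 64.6% over 4, both within the interval of the reported value. The count of genes at least 2-fold higher in members (217) was 121 with 50 CPM added, 330 with a minimum of 10 CPM and 58 with a minimum of 200 CPM. The count lower in members (161) was 246 after thinning to 1000 UMIs, 85 with 50 CPM added, 508 with a minimum of 10 CPM and 39 with a minimum of 200 CPM. The type 17 count (20) was 7 of the genes that reached 200 CPM, fewer being measured there, and 16 to 21 under the other alternatives. For the rest the cause was not tested. Of 1653 values of 87 named genes past 2-fold under 19 alternatives, 1552 stayed past it and 4 turned sign, all with under 10 myeloid UMIs: Lyz2 (0.66), Cd74 (0.57), Apoe (0.28) and H2-Ab1 (0.10). Lyz2, Cd74 and H2-Ab1 are themselves among the genes that set that limit. Il18r1, Id2, Pkm, Eno1, Rgs1, Furin, Lmo4, Tnfrsf18, Atf3, Ier3, Ier5, Apoe, Cd74 and H2-Eb1 were under 2-fold in 3 or more alternatives. The depth of 198440 member UMIs makes 1 UMI worth about 5.04 CPM, so a gene with few UMIs has a wide interval.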
